A study of Mus musculus with 12 samples.

Results

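The leukocyte surface and antigen presentation families of the mouse were examined in mammary tumors treated with 2 agonists of the retinoid X receptor (RXR), V-125 and bexarotene. Members were chosen by gene name: CD antigens (Cd followed by a digit), H2 histocompatibility genes, Fc gamma and epsilon receptors, Clec lectins, Siglec and Lilr receptors, Klr lectin-like receptors, the Ly and Ms4a families, Toll-like receptors, and immunoglobulin heavy and kappa genes. Of the 2876 genes listed in either deposited table, 52 were members, with 30 of the 1589 genes in the V-125 table, 26 of the 1784 in the bexarotene table and 4 in both (Cd44, Cd177, Klrg2 and H2-Bl). The names Cd209f and Cd300ld2 were left out because their control mean was 0, and 1 further name was set aside by the selection rule.

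All 12 tumors came from female MMTV-neu mice, in which the mouse mammary tumor virus promoter drives the Neu (Erbb2) oncogene in mammary epithelium, so that the control mice carried the transgene too. Mice bearing tumors were fed control diet or a diet with V-125 or bexarotene, each at 100 mg/kg, over 10 days, and each group had 4 tumors. PolyA-enriched RNA of the whole tumor was sequenced, and a tumor therefore contributed RNA of its epithelial, vascular and immune cells together. In such RNA, fewer cells of a type and less RNA per cell cannot be told apart. Of 8 mammary epithelial markers, 2 were listed for V-125. Among these, Epcam, an epithelial adhesion molecule, had normalized counts between 28485 and 53468 in the 8 V-125 and control tumors.

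These families carry much of what leukocytes show at their surface. T cells recognize peptide presented by H2 molecules and need costimulatory receptors such as CD28, B cells and plasma cells make the immunoglobulin chains, and macrophages and dendritic cells bind antibody through Fc receptors and microbial molecules through Toll-like receptors and C-type lectins. Family names do not fix the cell type: Ly6d and Ly6k are also known from epithelia, and Cd300lg, Clec14a and Ly6c1 are known from endothelium. RXR agonists act on a nuclear receptor that binds DNA with partner receptors, often at repeats of a short half-site.

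Promoter sequence was available for 34 of the 52 members, as the 250 bases before the RefSeq start of each gene on GRCm38.p6. The windows of 4 members are printed 5′ to 3′ on the gene's strand, each lying wholly outside the annotated gene. Ly6c1 and Cd44 are shown because their groups did not overlap, Cd177 because its mean was lower with both agonists, and Fcgr1 because its group difference rested on a single tumor. Capitals mark matches, on either strand, to the nuclear receptor half-site AGGTCA or to GAGGAAG, the core of the site bound by the myeloid and B cell factor PU.1. No printed window holds both motifs.
Ly6c1 (chr15:75048838-75049087, minus strand): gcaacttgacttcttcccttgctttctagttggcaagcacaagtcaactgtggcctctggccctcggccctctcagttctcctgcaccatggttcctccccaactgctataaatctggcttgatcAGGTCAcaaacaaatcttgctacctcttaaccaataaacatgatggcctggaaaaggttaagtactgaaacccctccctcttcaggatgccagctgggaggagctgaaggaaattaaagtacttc
Cd44 (chr2:102901666-102901915, minus strand): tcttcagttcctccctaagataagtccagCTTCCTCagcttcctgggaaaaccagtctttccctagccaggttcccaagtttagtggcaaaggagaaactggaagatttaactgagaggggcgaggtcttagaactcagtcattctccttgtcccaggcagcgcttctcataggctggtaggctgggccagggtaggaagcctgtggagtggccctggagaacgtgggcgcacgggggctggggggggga
Cd177 (chr7:24760312-24760561, minus strand): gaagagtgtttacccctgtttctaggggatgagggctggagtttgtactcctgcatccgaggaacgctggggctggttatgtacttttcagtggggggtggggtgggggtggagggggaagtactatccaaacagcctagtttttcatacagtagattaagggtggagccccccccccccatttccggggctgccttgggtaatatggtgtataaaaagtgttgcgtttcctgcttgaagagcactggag
Fcgr1 (chr3:96293970-96294219, minus strand): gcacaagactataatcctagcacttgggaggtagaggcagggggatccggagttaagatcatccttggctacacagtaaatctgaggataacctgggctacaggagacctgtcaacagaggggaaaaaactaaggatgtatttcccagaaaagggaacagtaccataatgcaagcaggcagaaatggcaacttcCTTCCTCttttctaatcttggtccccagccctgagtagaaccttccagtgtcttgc
The half-site of Ly6c1 lay in the middle of its window. The PU.1 core lay 221 bases before the start in Cd44 and 56 in Fcgr1, while the Cd177 window held neither set of letters. Of the 34 member windows, 6 (17.6%) held the half-site, against 14% of 32851 promoter windows in the whole table. The PU.1 core was found in 11 member windows (32.4%), against 10.6% of all windows. A single window was kept for each member. The 32851 windows were neither reduced to a single window per gene nor limited to listed genes, so the shares are not made alike. A match describes letters only, and binding was not measured here.

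The V-125 table gave counts for each tumor. It stopped at the authors' unadjusted p-value of 0.05, so every listed gene had already been selected for a difference between these same 8 tumors, and p-values below are not independent of that selection. Reads counted on genes ranged from 15571690 to 22574865 per tumor. A normalized count is the number of reads of a gene divided by the size factor of its tumor, and values are given in the order of replicates 1 to 4.

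Positions are those of the deposited table, whose coordinates match GRCm38. Ly6d, Ly6k, Ly6a and Ly6c1 lie in a cluster on chromosome 15, all on the minus strand. Among these members, Ly6d (ENSMUSG00000034634) has the lowest position, from 74762056 to 74763620. Ly6c1 (ENSMUSG00000079018) has the highest, from 75044018 to 75048830. Tlr1 (64924679 to 64933563) and Tlr6 (64952031 to 64960097) are neighbors on the minus strand of chromosome 5. Cd300lg (ENSMUSG00000017309) lies on chromosome 11 from 102041509 to 102055620, Clec14a (ENSMUSG00000045930) on chromosome 12 from 58264720 to 58269290 and Cd44 (ENSMUSG00000005087) on chromosome 2 from 102811141 to 102901665. Counts were given per gene, and isoforms were not separated.

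V-125 replicate 1 stood apart from the other tumors over these families. It held the highest normalized count of all 8 tumors in 18 of the 30 members (60.0%), against 393 of all 1589 listed genes (24.7%). Among genes with a higher V-125 mean, the share was 18 of 22 members (81.8%) against 48.1% of all such genes. The plot of the tumor holding each gene's highest value shows this tumor ahead of the other 7 in both sets. For this reason, effect sizes of the 23 members in the edgeR fit are given with and without V-125 replicate 1. Ratios of all 30 members are drawn both ways in a later plot.

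**Figure D1:**
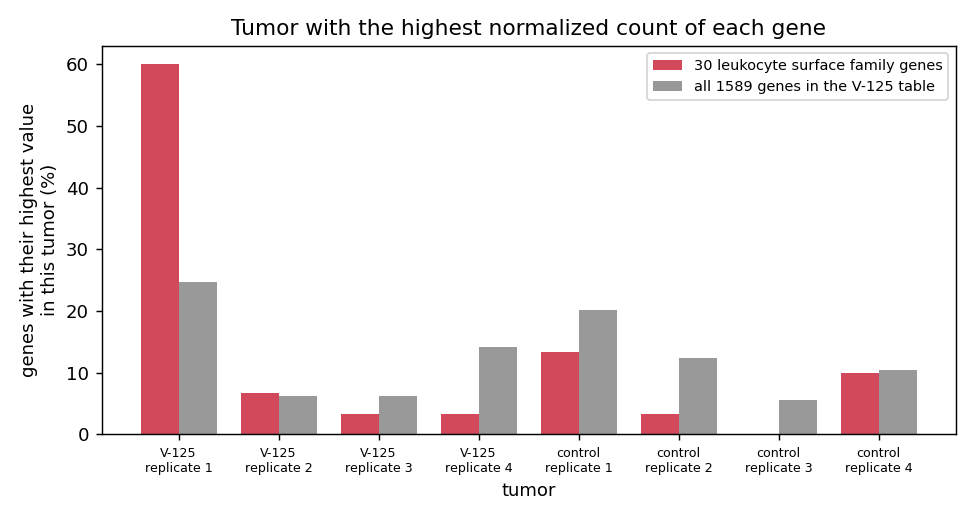
Bars give the percentage of genes (vertical axis) whose highest normalized count lay in each of the 8 tumors (horizontal axis), for the 30 family members (red) and all 1589 listed genes (grey). V-125 replicate 1 held the maximum of 60.0% of the members and 24.7% of all listed genes.

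Most members in the V-125 table were higher in treated tumors: 22 of 30 had a higher V-125 mean (73.3%, against 51.4% of all listed genes). The same 22 were higher without V-125 replicate 1. Only 1 of all 1589 listed genes changed direction then, so with genes selected on these tumors an unchanged direction says little. The 4 V-125 and 4 control tumors did not overlap for 10 members (33.3%), fewer in proportion than the 38.6% of all listed genes. Of these, Ly6c1, Cd300lg, Cd44, Clec14a, Ly6k, Cd96 and Tlr6 were higher, and Cd276, Klrg2 and Cd81 were lower. Each of the 10 had a two-sided exact permutation p of 0.0286, the smallest that 70 assignments of 8 tumors allow. Groups without overlap always give this value, so it only restates the lack of overlap. Leaving out a tumor cannot create an overlap, and without V-125 replicate 1 Cd1d1, lower with V-125, joined these 10, giving 11 members (36.7%) against 47.8% of all listed genes.

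In the edgeR quasi-likelihood fit, 23 of the 30 members had enough reads to enter, and 14 of them had an unadjusted p-value under 0.05, against 71.5% of the 1333 genes fitted. Without V-125 replicate 1 this was 13 of 25, against 55.3%, with Ly6k and H2-Bl entering the fit. Both are among the 13. Ly6k had enough reads only in V-125 tumors and H2-Bl only in controls, in each case the group where it was higher. Their part in this count therefore says nothing of the difference. After Benjamini-Hochberg adjustment over 15310 tests, edgeR called 0 members and 0% of all fitted genes. DESeq2 called 5 members, Ly6c1, Cd300lg, Ly6d, Cd44 and Clec14a, all higher with V-125, against 9.3% of all fitted genes. The median log2 fold change of the members in the edgeR fit was 0.92, against 0.36 over all fitted genes, and without V-125 replicate 1 it was 0.41 against 0.29.

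**Figure D2:**
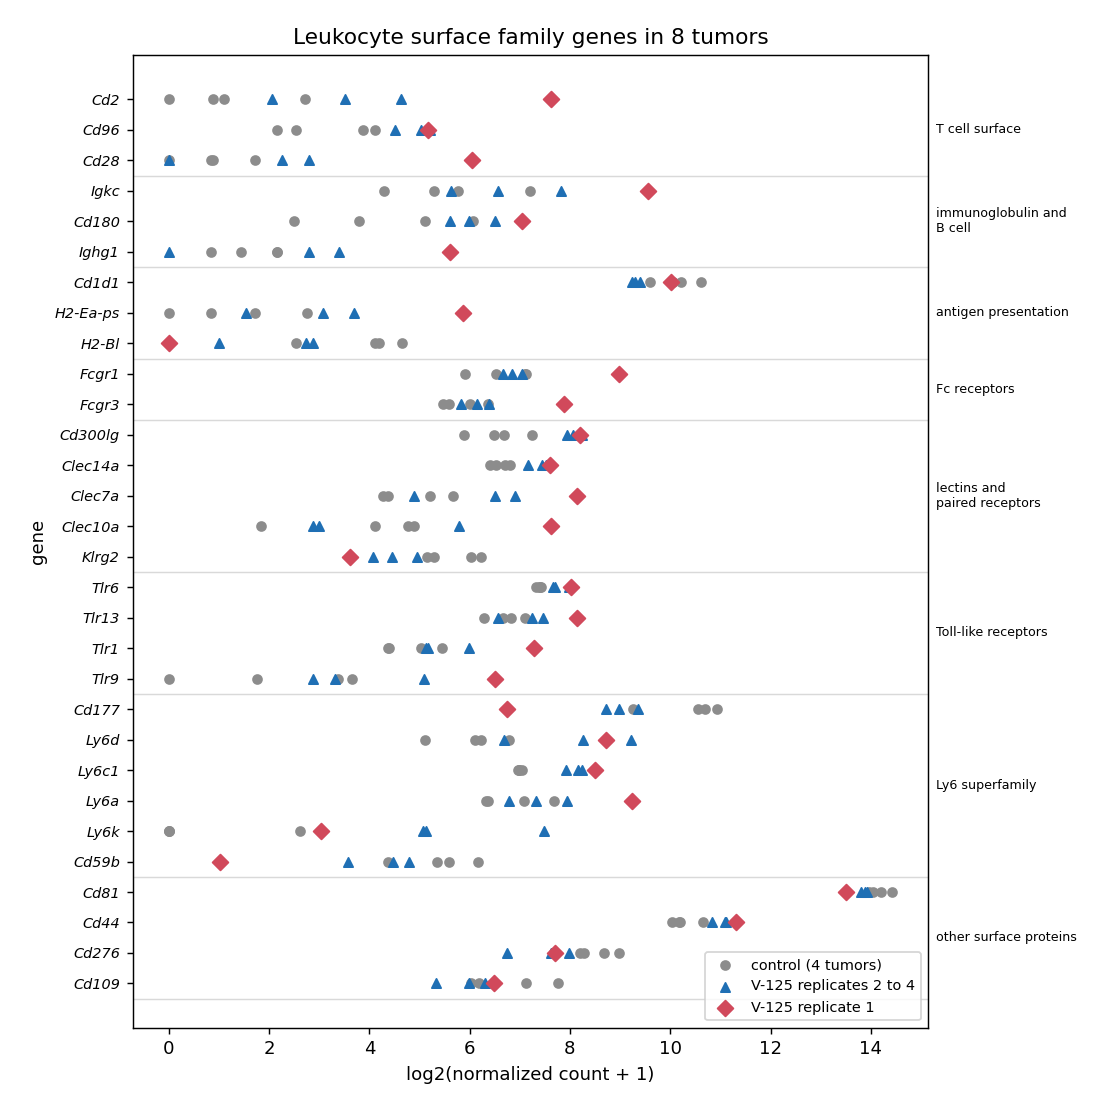
Each point is the log2(normalized count + 1) of a gene (horizontal axis) in a single tumor, for the 30 members of the V-125 table grouped by role (vertical axis): control in grey circles, V-125 replicates 2 to 4 in blue triangles and V-125 replicate 1 as a red diamond. For Cd2, Cd28 and Fcgr1 the diamond stands far to the right of the other 7 tumors, while for Ly6c1, Cd44 and Cd300lg all 4 V-125 tumors lie to the right of the controls.

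Among T cell surface genes, Cd2, Cd28 and Cd96 were listed, all with higher means in V-125 tumors. Cd96, an adhesion receptor of T and NK cells, had 34.7, 36.1, 21.8 and 31.7 normalized counts with V-125 and 3.46, 16.2, 4.79 and 13.7 in controls. All 4 treated tumors were above all controls, and the edgeR log2 fold change was 1.70 ± 0.56 (SE, n = 4 and 4, unadjusted p = 0.0126, adjusted p = 0.677). Without V-125 replicate 1 the log2 fold change was 1.64 ± 0.60. Controls held 3, 14, 6 and 16 reads of Cd96, so it had enough reads for the fit mainly through V-125 tumors, where it was higher. Its p-value is not independent of that filter.

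Cd2, an adhesion molecule of T and NK cells, was distributed differently. Its normalized counts were 195, 10.4, 23.8 and 3.17 with V-125 and 0, 1.16, 5.59 and 0.854 in controls. A single tumor held most of the reads, and V-125 replicate 4 lay below the highest control. The V-125 mean was 58.2 with that tumor and 12.5 without it, against a control mean of 1.90 resting on 9 reads in all. Cd28, the costimulatory receptor, had 65.4, 3.80, 5.96 and 0 with V-125 and 0, 2.31, 0.799 and 0.854 in controls, with only 4 control reads. Both were too low for the filter of the edgeR fit, and their values were written out per tumor after they had been seen. Exact permutation tests over the 70 assignments of the 8 tumors gave a two-sided p = 0.0571 for Cd2 and 0.143 for Cd28, where the smallest possible value is 0.0286.

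The immunoglobulin and B cell members Igkc, Ighg1 and Cd180 had higher V-125 means, and all 3 were highest in V-125 replicate 1. Igkc, the kappa light chain constant region, had 755, 225, 48.7 and 93.1 normalized counts with V-125 and 146, 18.5, 38.3 and 53.8 in controls. The groups overlapped, and the log2 fold change of 2.13 ± 0.88 (edgeR, unadjusted p = 0.0361, adjusted p = 0.770) became 0.93 ± 0.70 without replicate 1. Ighg1, a heavy chain constant region, ranged from 0 to 48.0 with V-125 and from 0.799 to 3.47 in controls.

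Cd180, a Toll-like receptor homolog of B cells and myeloid cells, had 131, 90.2, 62.6 and 47.6 with V-125 and 4.61, 65.9, 12.8 and 33.3 in controls. Here 3 controls were below all V-125 tumors and control replicate 2 was within their range. The ratio of means was 2.84 with all tumors and 2.29 without V-125 replicate 1. An exon of Cd180 overlaps Mast4 on the opposite strand, and since the strand setting of the counting was not given in the sources used here, reads of the 2 genes cannot be told apart. Immunoglobulin genes can also share reads within their family.

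Of the antigen presentation genes, Cd1d1, H2-Bl and H2-Ea-ps were listed for V-125. Cd1d1, which presents lipids to NKT cells, had 1036, 631, 599 and 674 normalized counts with V-125 and 1561, 1058, 1186 and 777 in controls. V-125 replicate 1 was the only treated tumor above a control, and leaving it out moved the edgeR log2 fold change from -0.64 ± 0.25 (unadjusted p = 0.0296, adjusted p = 0.764) to -0.85 ± 0.24 (unadjusted p = 0.00573, adjusted p = 0.627). H2-Bl, annotated as a polymorphic pseudogene, ranged from 0 to 6.34 with V-125 and from 4.79 to 24.2 in controls. These values rest on 13 reads over the V-125 tumors and 61 over the controls. H2-Ea-ps, a class II pseudogene, ranged from 1.90 to 57.2 with V-125, with its highest value in replicate 1, and from 0 to 5.78 in controls. H2 genes are alike in sequence and may share reads.

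Both Fc gamma receptors listed, Fcgr1 (the high affinity IgG receptor) and Fcgr3 (a low affinity activating receptor), were set apart by V-125 replicate 1. Fcgr1 had 501, 114, 130 and 100.5 normalized counts with V-125 and 137, 138, 59.1 and 90.5 in controls. Leaving out that tumor changed the ratio of V-125 to control means from 1.99 to 1.08 and the edgeR log2 fold change from 1.00 ± 0.55 to 0.12 ± 0.34. For Fcgr3 the values were 234, 82.6, 69.5 and 56.0 with V-125 and 63.4, 80.9, 43.1 and 47.0 in controls, and the ratio changed from 1.89 to 1.18. In both genes the remaining 3 V-125 tumors lay within or close to the control range, and the receptors may share reads with their relatives.

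Cd300lg, a CD300 family receptor known from vascular endothelium, had 294, 244, 301 and 264 normalized counts with V-125 and 88.8, 102, 151 and 58.0 in controls. The lowest treated tumor was well above the highest control. The edgeR log2 fold change was 1.46 ± 0.30 (unadjusted p = 0.000736, adjusted p = 0.456) and 1.43 ± 0.32 without V-125 replicate 1. Adjusted p-values of DESeq2 were 0.00202 with all tumors and 0.0158 without that tumor. Clec14a, an endothelial C-type lectin domain protein, had 194, 172, 184 and 143 with V-125 and 103, 111, 83.9 and 90.5 in controls, again without overlap. Its edgeR log2 fold change was 0.84 ± 0.24 (unadjusted p = 0.00559, adjusted p = 0.588), and its DESeq2 adjusted p of 0.0200 became 0.149 without V-125 replicate 1, when its log2 fold change was 0.78.

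Kdr, the VEGF receptor of endothelium, was the only 1 of 8 endothelial markers in the V-125 table. It had 539, 835, 793 and 775 normalized counts with V-125 and 251, 453, 429 and 498 in controls, without overlap and with its lowest treated value in V-125 replicate 1. Its part in the values of Cd300lg, Clec14a and Ly6c1 was not tested.

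The myeloid lectins behaved otherwise. Clec7a (Dectin-1, a receptor for fungal beta-glucan) had 281, 119, 89.4 and 28.6 normalized counts with V-125 and 18.4, 35.8, 49.5 and 19.6 in controls. V-125 replicates 1 to 3 were above all controls and replicate 4 lay within the control range, with an edgeR log2 fold change of 2.06 ± 0.65 (unadjusted p = 0.0100, adjusted p = 0.654) that was 1.35 ± 0.55 without replicate 1. Clec10a, a galactose-type lectin of macrophages and dendritic cells, had 195, 54.1, 6.95 and 6.34 with V-125 and 28.8, 16.2, 26.4 and 2.56 in controls. Its ratio of means went from 3.55 to 1.22 when V-125 replicate 1 was left out.

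Klrg2, a lectin-like receptor, was lower in all treated tumors, with 11.2, 20.9, 29.8 and 15.9 normalized counts against 34.6, 38.1, 63.9 and 73.4 in controls. The edgeR log2 fold change was -1.43 ± 0.45 (unadjusted p = 0.0101, adjusted p = 0.655). Without V-125 replicate 1, its lowest tumor, it was -1.24 ± 0.45.

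All 4 Toll-like receptors listed, Tlr1, Tlr6, Tlr9 and Tlr13, had higher V-125 means and their highest value in V-125 replicate 1. Tlr6, which pairs with TLR2 to detect diacylated lipopeptides, had 260, 201, 251 and 208 normalized counts with V-125 and 171, 168, 166 and 160 in controls. The control tumors were close together and the treated tumors all above them, with an edgeR log2 fold change of 0.47 ± 0.20 (unadjusted p = 0.0445, adjusted p = 0.791) and 0.41 ± 0.21 without replicate 1. Tlr1, the partner for triacylated lipopeptides, had 154, 35.1, 62.6 and 33.8 with V-125 and 19.6, 42.8, 19.97 and 31.6 in controls. Its log2 fold change was 1.33 ± 0.56 with all tumors and 0.62 ± 0.45 without replicate 1. Tlr13, a receptor for bacterial ribosomal RNA, had 283, 175, 151 and 94.1 with V-125 and 113, 136, 77.5 and 101 in controls. Its groups overlapped through V-125 replicate 4, and its log2 fold change of 0.72 ± 0.36 became 0.39 ± 0.31 without replicate 1. Tlr9, which detects unmethylated CpG DNA, ranged from 6.34 to 89.9 with V-125 and from 0 to 11.6 in controls.

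The Ly6 superfamily, small proteins mostly anchored to the membrane by a lipid, held the member with the lowest edgeR p-value. Ly6c1 (monocyte and endothelial antigen) had 360, 303, 242 and 284 normalized counts with V-125 and 123, 126, 131 and 125.5 in controls. Controls spanned a very narrow range, and the lowest treated tumor was far above it. The log2 fold change was 1.23 ± 0.21 (edgeR, unadjusted p = 0.000186, adjusted p = 0.443) and 1.13 ± 0.20 without V-125 replicate 1, and DESeq2 gave adjusted p-values of 2.39e-06 and 0.000134. Ly6d (lymphocyte antigen 6D) had 421, 304, 101 and 593 with V-125 and 73.8, 33.5, 109 and 68.3 in controls. V-125 replicate 3 was below control replicate 3, and the log2 fold change was 2.31 ± 0.53 (edgeR, adjusted p = 0.456, DESeq2 adjusted p = 0.00454). Without V-125 replicate 1 it was 2.22 ± 0.56 (edgeR, adjusted p = 0.552, DESeq2 adjusted p = 0.0250).

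Ly6a (Sca-1, a progenitor and interferon-responsive antigen) had 602, 245, 109 and 160 normalized counts with V-125 and 204, 135, 81.5 and 79.4 in controls. Its ratio of means was 2.23, and 1.37 without V-125 replicate 1. Ly6k had 7.15, 178, 32.8 and 33.8 with V-125 and 0, 0, 0 and 5.12 in controls, and it was V-125 replicate 1 that came nearest to the controls. The control value rests on 6 reads in a single tumor, and the gene was too low for the fit with all tumors. It passed the read filter only when V-125 replicate 1, its lowest treated tumor, was left out, and no p-value is given for it from that fit. An exon of Ly6k overlaps Gm17189 on the opposite strand, and Ly6 genes may share reads.

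In the same superfamily, Cd177 and Cd59b were lower. Cd177, a neutrophil surface protein, had 106, 502, 655 and 419 normalized counts with V-125 and 1664, 1955, 611 and 1504 in controls. Control replicate 3 lay below V-125 replicate 3, and the other 3 controls were above all treated tumors. The edgeR log2 fold change was -1.77 ± 0.51 (unadjusted p = 0.00630, adjusted p = 0.607) and -1.45 ± 0.37 without V-125 replicate 1. DESeq2 gave adjusted p-values of 0.0556 and, without that tumor, 0.0342. Cd59b, a complement inhibitor, had 1.02, 26.6, 10.9 and 21.1 with V-125 and 70.3, 47.4, 39.9 and 19.6 in controls. Its groups overlapped through control replicate 4. The ratio of means was 0.337, and 0.441 without V-125 replicate 1, its lowest tumor.

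Of the remaining surface proteins, Cd44 was higher and Cd81, Cd276 and Cd109 were lower. Cd44, the hyaluronan receptor of leukocytes and epithelial cells, had 2542, 1834, 2211 and 2176 normalized counts with V-125 and 1043, 1157, 1603 and 1169 in controls. All treated tumors were above all controls, and the log2 fold change was 0.82 ± 0.18 (edgeR, unadjusted p = 0.000944, adjusted p = 0.456) and 0.74 ± 0.19 without V-125 replicate 1. Adjusted p-values of DESeq2 were 0.00883 with all tumors and 0.0753 without it.

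Cd81, a tetraspanin of most cells, had 11643, 15539, 15097 and 14391 with V-125 and 21952, 18950, 15937 and 16840 in controls. The groups did not overlap, with a small log2 fold change of -0.38 ± 0.17 (edgeR, unadjusted p = 0.0507, adjusted p = 0.80). Without V-125 replicate 1, its lowest tumor, it was -0.30 ± 0.18 (edgeR, unadjusted p = 0.130). Cd276 (B7-H3, an immune checkpoint ligand) had 207, 195, 250.2 and 107 with V-125 and 311, 412, 292 and 502 in controls. Its log2 fold change was -0.997 ± 0.30 (edgeR, unadjusted p = 0.00790, adjusted p = 0.629), and -1.04 ± 0.33 without V-125 replicate 1. Exons of Cd81 and Cd276 overlap R74862 and Gm10657 on the opposite strand. Cd109, which binds transforming growth factor beta, had 88.9, 62.7, 78.4 and 39.1 with V-125 and 64.6, 138, 71.9 and 215 in controls. The groups overlapped, and the edgeR log2 fold change was -0.86 ± 0.45, and -1.02 ± 0.48 without V-125 replicate 1. Epcam had lower values in V-125 tumors too, from 28485 to 34948 against 37941 to 53468 in controls, and its part in the lower values of Cd81 and Cd276 was not tested.

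On the length-corrected FPKM scale, levels differed widely between these genes. Cd81 had the highest mean, 273 FPKM with V-125 and 355 in controls. Ly6d had 26.5 against 5.30 in controls. Igkc had 29.4 against 6.71, but this V-125 mean rested on replicate 1, at 79.4 FPKM against 23.3, 5.05 and 9.69 in the others. Cd44 had 17.9 against 10.2 and Ly6c1 9.83 against 4.18, whereas Cd28 had 0.171 against 0.00897. Cd28 and Cd2 (1.87 against 0.0605 FPKM) were among the members with the lowest control levels.

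**Figure D3:**
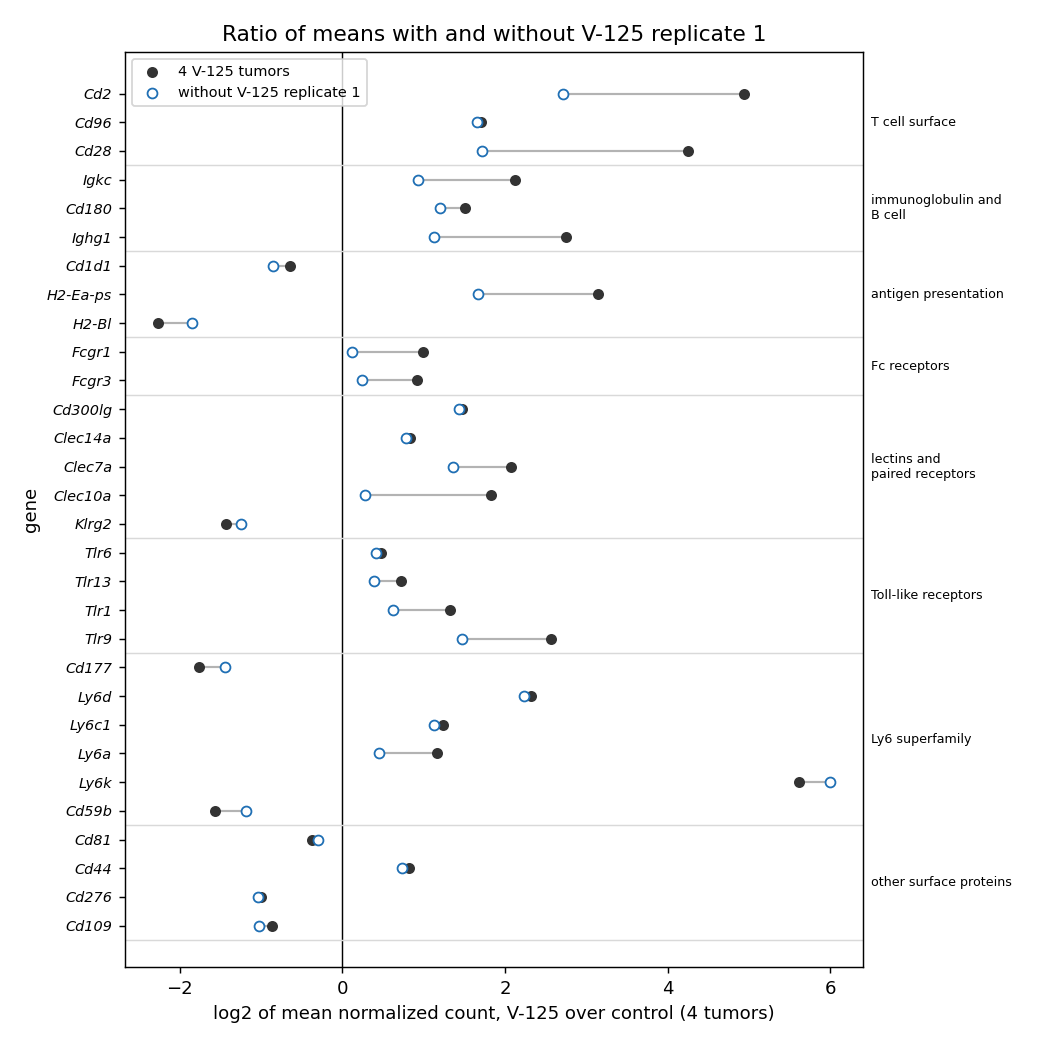
For each of the 30 members (vertical axis, grouped by role), the log2 ratio of the V-125 mean to the control mean of normalized counts (horizontal axis) is drawn with all 4 V-125 tumors (filled) and without V-125 replicate 1 (open). No member crosses 0, and only 1 of all 1589 listed genes does. Long lines mark genes whose ratio depends on that tumor, such as Clec10a (3.55 to 1.22 as a linear ratio) and Fcgr1 (1.99 to 1.08).

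Other genes of the same pathways were read from pathway lists. The T cell receptor list also holds surface receptors (Cd28, Icos and Pdcd1), and Cd28 is itself a member. Of 19 genes of T cell receptor signaling, 8 were in the V-125 table, all with higher means with and without V-125 replicate 1, and all with their highest value in that tumor. Their summed normalized counts were 955, 294, 208.5 and 242 with V-125 and 152, 208.1, 121 and 177 in controls. The sum of replicate 1 was far above the rest, and that of V-125 replicate 3 was barely above that of control replicate 2. Groups did not overlap for 1 of the 8, against 38.6% of all listed genes. This was Ubash3a, a regulator of T cell receptor signals. Ubash3a had 30.7, 23.7, 14.9 and 9.52 with V-125 and 0, 9.25, 0 and 8.54 in controls, so that its groups were barely separated.

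Of 20 genes of Fc receptor and C-type lectin signaling, 4 were listed and all had higher V-125 means. The median edgeR log2 fold change of these 4 was 0.98, and 0.23 without V-125 replicate 1. Btk and Pik3cd, kinases of leukocyte receptor signaling, rested on that tumor, with log2 fold changes of 1.23 and 1.02 that became 0.14 and 0.22 without it. Pik3ap1, a phosphoinositide 3-kinase adaptor, and Ptpn6, the phosphatase SHP-1 of hematopoietic cells, did not overlap between groups, 2 of 4 against the 38.6% of all listed genes. Pik3ap1 had 613, 615, 561 and 567 with V-125 and 66.9, 387, 288 and 488 in controls. Ptpn6 had 1415, 1017, 1086 and 1037 with V-125 and 941, 855, 784 and 960 in controls. By contrast, 3 of 27 Toll-like receptor signaling genes were listed (2 higher, 1 lower), and 1 of 23 genes of antigen processing, the immunoproteasome subunit Psmb10, was listed and lower.

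Markers of whole cell types were mostly not in the V-125 table. Such a gene may have missed the p-value limit or may not have been tested. It held 1 of 14 T cell markers (Cd2), 2 of 12 B and plasma cell markers (Igkc and Mzb1), 1 of 12 macrophage and monocyte markers (Fcgr1), 1 of 7 neutrophil markers (Cd177) and 1 of 6 mast cell markers (Mcpt4). It held 0 of 10 NK and cytotoxic markers, 0 of 9 dendritic cell markers and 0 of 5 lymph node stroma markers, as well as 0 of 6 fibroblast and 0 of 5 adipocyte markers. Cd2, Igkc, Fcgr1 and Cd177 are members themselves, so their values are not separate from those above. Of 8 mammary epithelial markers, Epcam and Cdh1 were listed and lower. Summed levels of the listed B and plasma cell markers were 803 in V-125 replicate 1, between 54.6 and 227 in the other V-125 tumors and between 20.8 and 146 in controls. Values of the markers that were not listed were not analysed here, and the part of each cell type in the results was not tested.

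For bexarotene, the authors' group means were used. The spread between those tumors is not known here, so no test was made and no SD is given. Control means in the bexarotene table were between 0.989 and 0.997 times those in the V-125 table for the genes in both, and the 2 comparisons share their control tumors.

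Among the 26 members kept, the direction was nearly uniform: 25 of 26 had a lower mean with bexarotene (96.2%, against 56.7% of all listed genes). Of the 26, only Cd44 was higher, at 2072 against 1236 in controls, a ratio of 1.68. The names left out for a control mean of 0, Cd209f and Cd300ld2, could only be higher with bexarotene. The share over all listed genes was counted without leaving out such genes, so the rule raised the share of lower members alone. A mean at least 2-fold below control was found for 14 of 26 members, against 28.4% of all listed genes. The median log2 ratio of the members was -1.15. Restricting the count to the 24 members with a larger mean of at least 10 left 23 lower, against 55.8% of all genes at that level. Of these 24, 12 had a mean at least 2-fold below control, against 409 of all 1638 genes at that level.

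**Figure D4:**
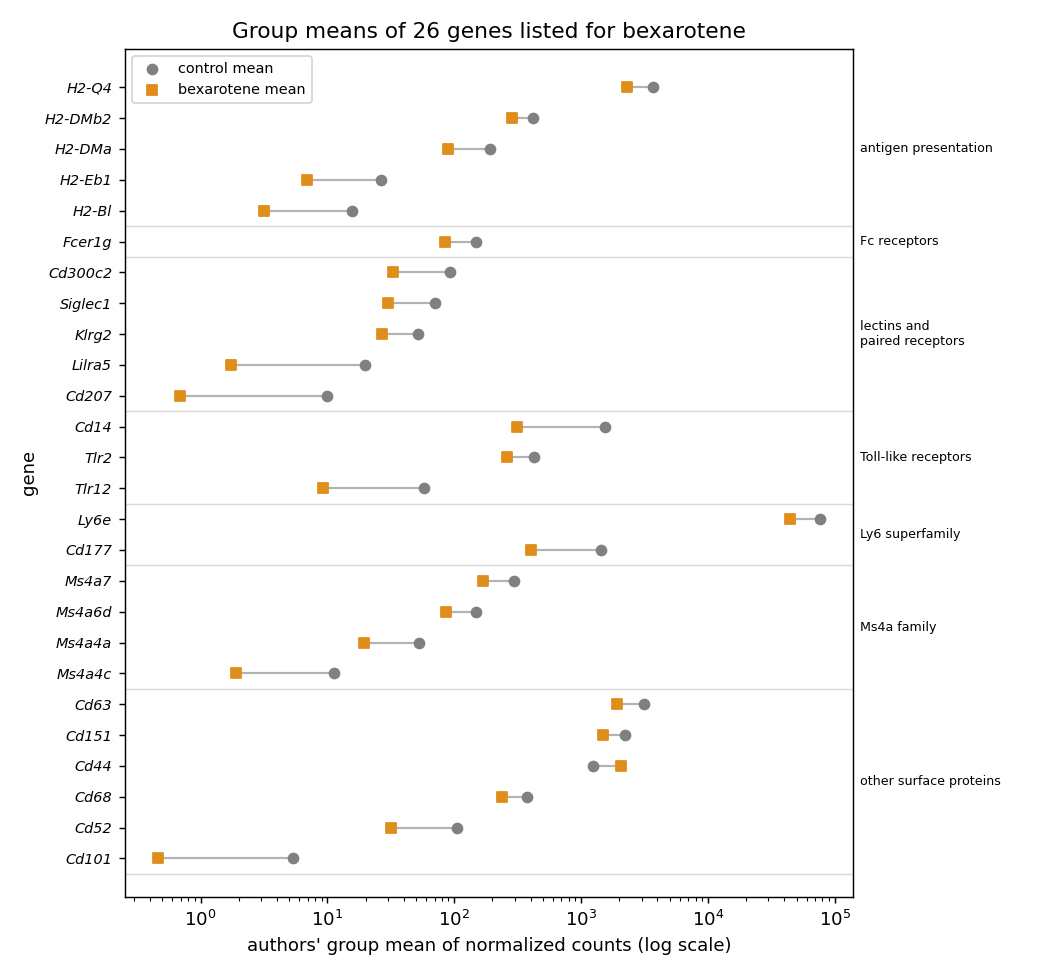
Authors' group means of normalized counts (horizontal axis, log scale) for the 26 members of the bexarotene table, grouped by role (vertical axis), with control in grey circles and bexarotene in orange squares. The square lies to the left of the circle for 25 genes and to the right for Cd44 alone.

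All 5 antigen presentation genes in the bexarotene table had lower means than in controls. H2-DMa and H2-DMb2, subunits of the class II peptide loading complex, had means of 89.9 against 191 and 283 against 416. H2-Eb1, a class II beta chain, had 6.87 against 26.7, and the class Ib gene H2-Q4 had 2314 against 3661. The polymorphic pseudogene H2-Bl had 3.15 against 15.6, at a low level. Of 23 antigen processing genes on the list, 8 were in the bexarotene table and all were lower, among them the immunoproteasome subunits Psmb8 (900.0 against 1842), Psmb9 (557 against 1000.4) and Psmb10 (367 against 931). Those genes were named after their values had been seen.

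All 3 genes of the Toll-like receptor group, Cd14, Tlr2 and Tlr12, had lower means. Cd14, the lipopolysaccharide coreceptor, had a mean of 310 against 1548 in controls, 4.99-fold lower. Tlr2 had 260 against 427 and Tlr12 9.23 against 57.4. Siglec1, the sialoadhesin of macrophages, had 30.2 against 70.4, and Cd68, a lysosomal macrophage protein, had 237 against 375. Fcer1g, the signaling chain of several Fc receptors, had 83.97 against 147.

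The 4 Ms4a genes listed, Ms4a4a, Ms4a4c, Ms4a6d and Ms4a7, encode membrane proteins with several spanning segments, and all were lower. Ms4a7 had 169 against 296, Ms4a6d 85.9 against 149, Ms4a4a 19.4 against 53.2 and Ms4a4c 1.89 against 11.2. Among the paired receptors, Cd300c2 had 32.7 against 91.9 and Lilra5 1.75 against 19.9. Cd207 (langerin, of Langerhans cells) had 0.691 against 9.95 and Cd101 had 0.460 against 5.37, levels too low to read a ratio from.

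Among the remaining members, Ly6e, an interferon-responsive Ly6 protein, had a mean of 44457 against 76194, the tetraspanins Cd63 and Cd151 had 1929 against 3118 and 1498 against 2241, and Cd52, a small glycoprotein of leukocytes, had 31.9 against 106. For the cell type lists, 6 of 12 macrophage and monocyte markers were in the bexarotene table and all were lower. Also lower were 2 of 9 dendritic cell markers (Cd207 and Itgax) and 1 of 7 neutrophil markers (Cd177). Cd14 and Cd68 of the macrophage list, Cd207 and Cd177 are members themselves, so these counts partly repeat the member values. The adipocyte marker Fabp4, 1 of 5 on its list, was higher, with a mean of 530.2 against 157. Of the epithelial list, Krt8 and Krt18 were lower, with means of 12215 against 16888 and 13150 against 19345, and 0 of 14 T cell markers were listed. Of the other pathway lists, all 8 listed Fc receptor and C-type lectin signaling genes were lower, the member Fcer1g among them. Of the listed Toll-like receptor signaling genes 6 of 7 were lower (Irak1 was higher). Both listed T cell receptor signaling genes, Zap70 and Sla, were lower. The part of these cell types in the lower members was not tested.

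For the 4 members in both tables, values of both comparisons are set side by side, and these share their controls. Cd44 had ratios to control of 1.76 with V-125 and 1.68 with bexarotene. Cd177 had 0.294 and 0.281, and Klrg2 had 0.370 and 0.520. H2-Bl had 0.208 and 0.202, from low treated means of 3.26 and 3.15. V-125 and bexarotene were given at the same dose and time, but their difference was not tested because bexarotene values of single tumors were not used. Of the other 48 members, 26 were listed for V-125 only and 22 for bexarotene only, and a gene missing from a table is not shown to be unchanged. In particular, no Ms4a, Siglec or Lilr gene was in the V-125 table, and no immunoglobulin gene was in the bexarotene table.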

How the data were processed

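Per the labels, polyA-enriched RNA of 12 mammary tumors was sequenced, and the submitters' processing notes name STAR 2.6.1d, featureCounts 1.5.0-p3 and limma. The genome build was not given in the sources used here; 29 of 30 member coordinates equal those of GENCODE on GRCm38. The authors deposited for V-125 and control the counts, normalized counts (a signal: count divided by a size factor per tumor) and FPKM of each listed gene. For bexarotene the authors' means of normalized counts were used. The authors deposited log2 fold changes, p-values and adjusted p-values of their own comparisons; only the p-value columns were used, to find that both tables stop at 0.05 and that 15310 (V-125) and 18687 (bexarotene) tests were adjusted for.

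The counts of all listed genes were fitted with edgeR 4.0.16 (quasi-likelihood, filterByExpr, deposited size factors) in R 4.3.3, adjusting by Benjamini-Hochberg over 15310 tests. Spread was thus estimated from selected genes. DESeq2 1.42.0, limma-voom (limma 3.58.1), other scalings, no filter, a replicate block and leaving out each tumor were alternatives. Exact permutation tests are two-sided, with 70 assignments for 8 tumors. With 7 tumors the smallest p is 0.0571.

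Groups and replicate numbers came from the labels; tumors are of different mice. Values per tumor are given for members whose groups do not overlap and for the other 14 fitted members (the rule allowed up to 16), and for bexarotene every member is named. Members and lists were chosen with earlier results of these data known. A gene of the T cell receptor signaling list is not reported here and was left out of its counts and sums.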

Additional observations from a re-analysis of the deposited data

Results flagged for a closer look

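In each member, each group of 4 tumors was examined for a value far from the other 3 by Dixon's test at the 95% level, and 6 of 60 groups held such a value, where chance gives about 1 in 20, or 3. In 4 of them it was V-125 replicate 1, at normalized counts of 195 for Cd2, 65.4 for Cd28, 501 for Fcgr1 and 234 for Fcgr3. The other 2 were in Ly6k, with 178 in V-125 replicate 2 and 5.12 in control replicate 4. The remaining Ly6k controls had 0, so any single value above 0 would be flagged there. No cause was tested.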

How the results depend on the processing

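With edgeR, 0 members had an adjusted p-value under 0.05, also with library totals, TMM, no filter, limma-voom or any single tumor left out. DESeq2 called 5 members, against 124 of all 1333 fitted genes. Without V-125 replicate 1, which was chosen after seeing the data, it called 5 members, against 91 of all 1362 fitted genes. Of those, Ly6c1, Cd300lg and Ly6d were called in both, Cd44 and Clec14a with all tumors, and Cd177 and Ly6k without replicate 1. Ly6k passed the read filter of that fit only through the V-125 tumors, so its call says nothing of the difference. Adjusting edgeR over the listed genes alone, which were selected on these tumors, called 4. The share over all genes is not given for that setting, so its count is not a result about the members. The cause of the difference between tools was not tested. Leaving out single tumors gave 13 to 19 members with an unadjusted p-value under 0.05 (14 with all). It gave 10 to 15 without overlap (15 without V-125 replicate 4). Medians of log2 fold change ran from 0.41, without V-125 replicate 1, to 1.18. With each single tumor left out, 22 members had the higher mean with V-125. Among genes selected on these tumors a change of direction was rare: without V-125 replicate 1 it was seen in 1 of all 1589. Beside the ranges of the counts, shares over all genes are given only with V-125 replicate 1 left out: 55.3% under 0.05 and 47.8% without overlap. Leaving out that tumor raised the share without overlap over all listed genes too, from 38.6%. The ranges are therefore not results about the members. Library totals and TMM shifted the median of all genes by -0.0015 and -0.030 log2 units. With the replicate number as a block (replicate block), 0 members passed the adjusted and 13 the unadjusted threshold, with a median of 0.83. The numbers do not pair the tumors: deviations of same-numbered tumors correlated at 0.12, -0.052, -0.19 and 0.077, and only number 1 matched itself best. Depth limits Cd2, Cd28, H2-Ea-ps, Ighg1 and Ly6k, which had fewer than 10 reads over the 4 controls. It also limits H2-Bl, with 13 reads over the 4 V-125 tumors.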
